A study of Mus musculus with 2 samples.

Results

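Cluster 7 was 1 of 18 clusters of sorted mammary tumor cells. Its members were the cells that carried this cluster number in the annotation deposited by the authors. It held 404 of 9159 annotated cells, 315 of 3829 in mouse 1 and 89 of 5330 in mouse 2. That was 8.23% (exact Clopper-Pearson 95% interval 7.38 to 9.14) and 1.67% (1.34 to 2.05) of the cells of each mouse. The cluster went by a high level of Epcam and a high luminal progenitor score, with Epcam, Cdh1 and Sox10 as its marker genes. The main comparison set it against the other annotated cells of the same mouse, 3514 cells in mouse 1 and 5241 in mouse 2.

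The cells came from tumors of 2 Krt8-CreERT/Rosa26-mTmG/MMTV-PyMT mice, 1 library each, and both mice belonged to the same and only condition. The MMTV promoter drives the polyoma middle T oncogene in mammary epithelium, and Krt8-CreERT is a recombinase made in luminal cells that express the keratin Krt8 and acts only after tamoxifen, so that the mTmG reporter turns these cells and their descendants from red to green. Both mice were given tamoxifen at 150 mg/kg on 3 days of week 5 and 3 days of week 6, 6 days in all, and tumors were taken at a volume of 1.5 cm3. Cells that were negative for DAPI, for CD31 of endothelial cells and for CD45 of leukocytes and positive for green fluorescent protein (GFP) were sorted, so that shares of cells are shares of what passed this gate.

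In the mammary gland, luminal progenitors are the proliferative luminal cells that lack the estrogen receptor and give rise to the milk-secreting alveolar lineage. They are known for the receptor Kit, the transcription factors Elf5 and Ehf, and secreted defence and milk proteins such as lactoferrin, lipocalin and casein. Mature luminal cells sense estrogen and progesterone, and basal cells contract, make keratins 5 and 14 and lay down basement membrane.

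Levels are counts scaled to a sum of 1000000 (CPM) of the unique molecular identifiers (UMIs, each 1 captured transcript) summed over the cells of a group in 1 mouse. Cluster 7 held 5420663 UMIs in mouse 1 and 999609 in mouse 2. The median was 16564 UMIs per cell in cluster 7 and 14774 in the other cells of mouse 1, and of 10906 in cluster 7 and 9405 in the other cells of mouse 2. The median mitochondrial share of UMIs was 7.12% in cluster 7 and 6.10% in the other cells of mouse 1, and 5.06% in cluster 7 and 5.43% in the other cells of mouse 2. A level of 3 UMIs, used as a floor for genes without a UMI, was 0.553 CPM in cluster 7 of mouse 1 and 3.00 CPM in that of mouse 2. Levels below it rest on fewer than 3 UMIs. The 2 libraries shared 9 annotated cell barcodes, 1 of them in cluster 7. The clusters were drawn by the authors from the same genes in the same cells, so the differences between cluster 7 and other cells are a description, and no p-value is given for them.

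Of the 3 marker genes, Epcam bore out the name of the cluster, and Cdh1 and Sox10 did not set it apart. Epcam (chromosome 17, 87635979 to 87651129, GRCm38), a homophilic adhesion molecule of epithelial cells, had 9219 CPM in cluster 7 and 6339 CPM in the other cells of mouse 1, and 7109 CPM in cluster 7 and 4984 CPM in the other cells of mouse 2. That was 1.45-fold and 1.43-fold higher and placed cluster 7 first of the 18 clusters in mouse 1 and second in mouse 2, where cluster 0 had 7268 CPM. Every cell of cluster 7 held an Epcam UMI.

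Cdh1, which encodes E-cadherin of adherens junctions, had 416 CPM in cluster 7 and 332 CPM in the other cells of mouse 1, and 496 CPM in cluster 7 and 411 CPM in the other cells of mouse 2. Its level in cluster 7 ranked 5 and 6 among the clusters, under that of cluster 10, which had 689 and 654 CPM. Sox10, a transcription factor of neural crest and of mammary progenitors, had 163 CPM in cluster 7 and 127 CPM in the other cells of mouse 1, and 155 CPM in cluster 7 and 125 CPM in the other cells of mouse 2, ranks 3 and 4. Neither gene differed from the other cells by more than 1.29-fold in either mouse. When every cell was randomly reduced to 2000 UMIs (thinned), a Sox10 UMI was found in 25.1% (20.4 to 30.2) of cluster 7 cells and 19.7% (18.3 to 21.2) of the other cells of mouse 1, and in 28.2% (19 to 39.0) of cluster 7 cells and 20.6% (19.4 to 21.9) of the other cells of mouse 2. In cluster 13, the cells with the highest mature luminal score, the thinned shares were 2.78% and 1.09%, at medians of 15278 and 11818 UMIs per cell before thinning. Without thinning, 85.1% and 74.2% of cluster 7 cells, 61.2% and 54.8% of the other cells and 11% and 7.81% of cluster 13 cells held a Sox10 UMI.

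**Figure D1:**
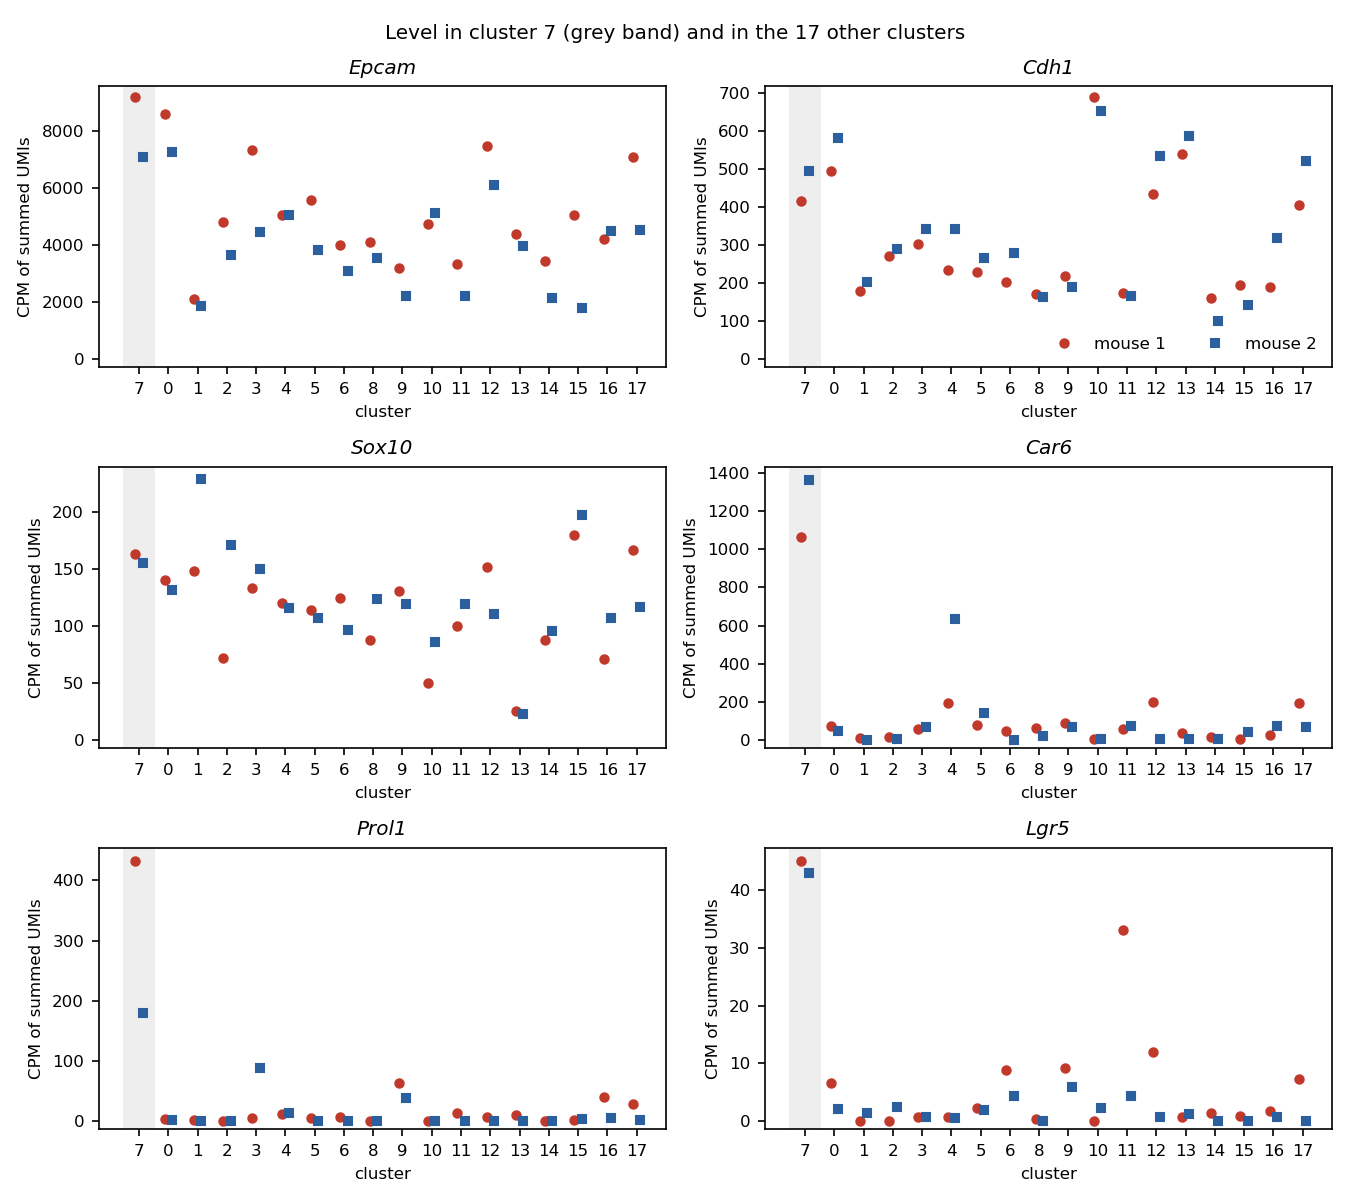
Level of 6 genes in cluster 7 (grey band) and in the 17 other clusters, in CPM of summed UMIs on a linear axis, with a red circle for mouse 1 and a blue square for mouse 2. Epcam, Cdh1 and Sox10 overlapped with other clusters, whereas Car6, Prol1 and Lgr5 were highest in cluster 7 in both mice.

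The authors had scored each cell from 0 to 1 for a luminal progenitor, a mature luminal and a basal signature. The mean luminal progenitor score was 0.737 in cluster 7 and 0.391 in the other cells of mouse 1, the highest of the 18 clusters, ahead of 0.646 in cluster 11. In mouse 2 it was 0.532 in cluster 7 and 0.404 in the other cells, the fourth highest, under 0.678 in cluster 6. A score above 0.5 was found in 75.9% (70.8 to 80.5) of cluster 7 cells and 37.2% (35.6 to 38.8) of the other cells of mouse 1, and in 52.8% (41.9 to 63.5) of cluster 7 cells and 38.0% (36.7 to 39.4) of the other cells of mouse 2. The luminal progenitor score was thus above this limit in most but not all cluster 7 cells of mouse 1. In mouse 2 it was above it in 47 of 89 cells, with an interval that spanned an even split. Within 0.1 of this limit lay 36 and 11 cluster 7 cells.

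The luminal progenitor score was the largest of the 3 scores in 291 of 315 cluster 7 cells (92.4%) and 48.4% of the other cells of mouse 1, and in 74 of 89 cluster 7 cells (83.1%) and 55.0% of the other cells of mouse 2. The mean basal score was 0.0396 in cluster 7 and 0.261 in the other cells of mouse 1, and 0.0246 in cluster 7 and 0.203 in the other cells of mouse 2, the lowest of the 18 clusters in both mice. The mean mature luminal score was 0.183 in cluster 7 and 0.241 in the other cells of mouse 1, and 0.172 in cluster 7 and 0.259 in the other cells of mouse 2. Most other cells had a low basal score too, with medians of 1.16e-04 in cluster 7 and 0.00436 in the other cells of mouse 1, and of 1.57e-05 in cluster 7 and 4.90e-04 in the other cells of mouse 2. A basal score above 0.5 was found in 24.6% and 19.4% of the other cells.

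**Figure D2:**
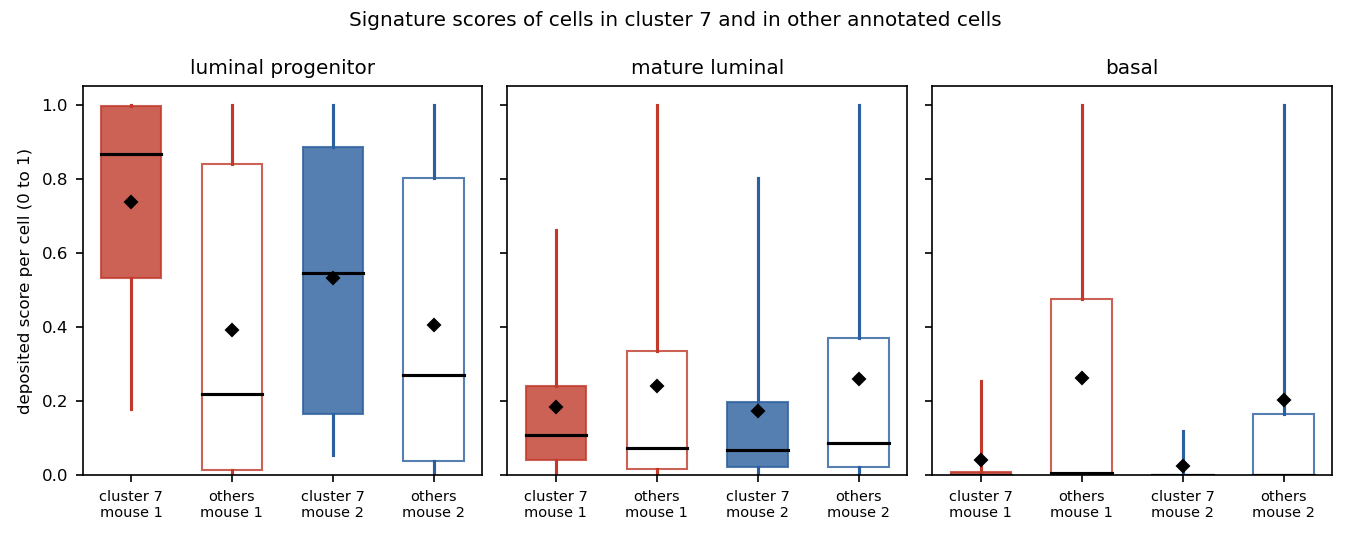
Deposited signature scores per cell (0 to 1) in cluster 7 (filled boxes) and in the other annotated cells (open boxes) of mouse 1 (red) and mouse 2 (blue). Boxes span the quartiles, black lines are medians, diamonds are means and whiskers run from the 5th to the 95th percentile. The luminal progenitor medians were 0.866 and 0.544 in cluster 7 and 0.220 and 0.269 in the other cells, and the basal medians lay close to 0 in cluster 7 and in the other cells of both mice.

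Of 32285 genes, 7516 had a mean of at least 10 CPM over the 4 sums and were compared. A gene was called higher or lower when (CPM + 1) differed by more than 2-fold the same way in both mice. By this limit 95 genes (1.26% of those compared) were higher in cluster 7 and 159 (2.12%) were lower. In mouse 1 alone 183 genes were higher and 245 lower, in mouse 2 alone 255 and 363, and 7 genes passed the limit in opposite directions. Over all genes compared, 66.3% had a ratio of the same sign in both mice, and the median log2 ratio was -0.05 in mouse 1 and 0.03 in mouse 2. Nearest to the limit, Smoc2 was just inside with log2 ratios of 2.04 and 1.02 and Abhd17c just outside with 1.16 and 0.99. On the lower side Saa1 was inside with -1.0 and -2.09 and Hdac7 outside with -0.99 and -1.38. Of the 95 higher genes, 63 were at their highest level in cluster 7 among all 18 clusters in both mice, and so were 113 of the other genes compared.

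**Figure D3:**
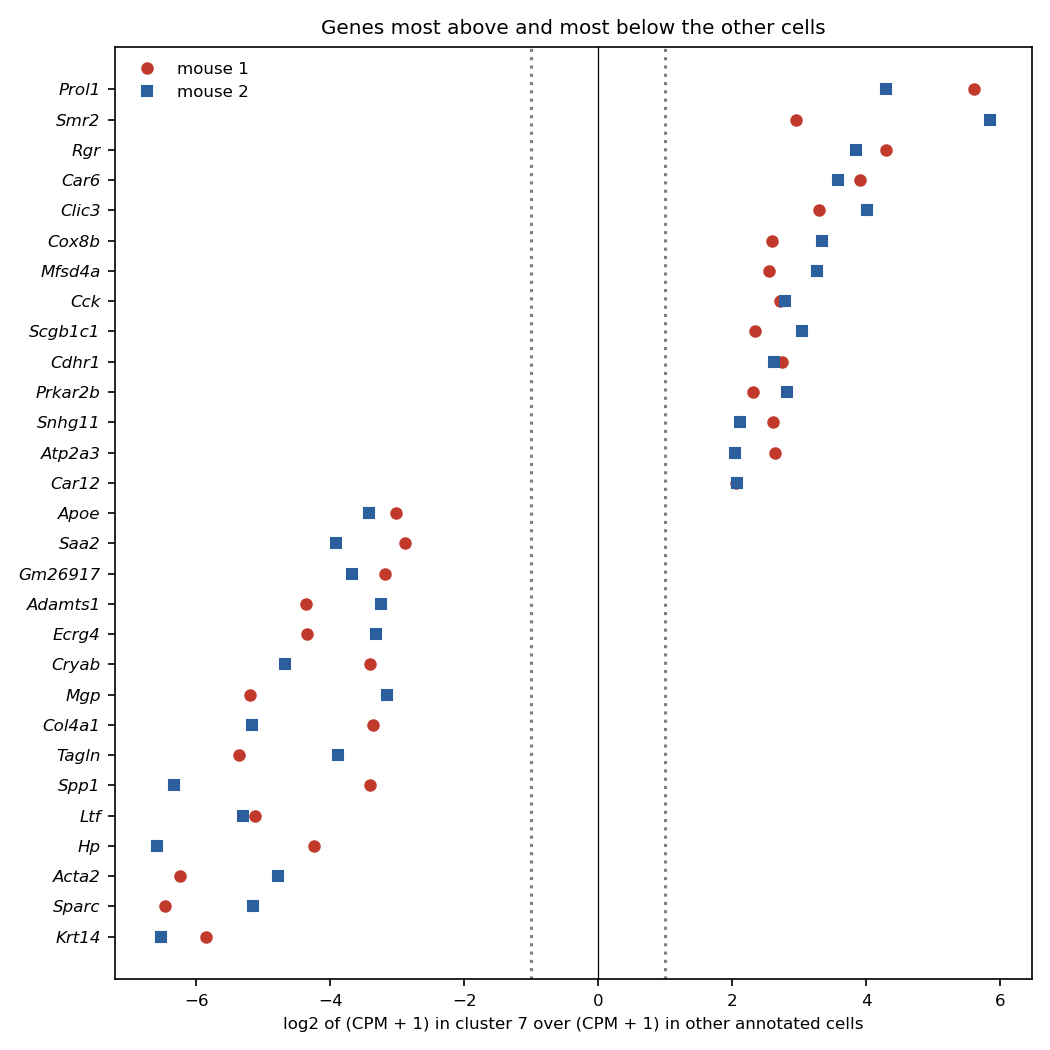
Log2 of (CPM + 1) in cluster 7 over (CPM + 1) in the other annotated cells, for the 15 lower and 14 of the 15 higher genes whose smaller ratio of the 2 mice was largest, with a red circle for mouse 1, a blue square for mouse 2 and dotted lines at the 2-fold limit. The values of Smr2 were farthest apart among the higher genes, at 2.95 in mouse 1 and 5.85 in mouse 2.

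The gene whose smaller ratio of the 2 mice was largest was Prol1 (chromosome 5, 88317312 to 88328814), which encodes a proline-rich secreted protein of the lacrimal and salivary glands. It had 432 CPM in cluster 7 and 7.93 CPM in the other cells of mouse 1, and 179 CPM in cluster 7 and 8.22 CPM in the other cells of mouse 2, 54.5-fold (counting interval 49.1 to 60.6) and 21.8-fold (18.2 to 26.0) higher. Cluster 7 held 84.7% and 28.0% of all Prol1 UMIs of the annotated cells, with 9.25% and 1.75% of all their UMIs. The next highest cluster was cluster 9 with 64.1 CPM in mouse 1 and cluster 3 with 87.9 CPM in mouse 2.

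Smr2 (chromosome 5, 88086556 to 88109053), an androgen-regulated secreted protein of the submandibular gland, had 1100.0 CPM in cluster 7 and 142 CPM in the other cells of mouse 1, and 660.3 CPM in cluster 7 and 10.5 CPM in the other cells of mouse 2. The ratio of 7.77-fold in mouse 1 and 63.1-fold in mouse 2 differed chiefly through the other cells, where cluster 5 of mouse 1 reached 515 CPM. Cluster 7 held 44.2% and 53.0% of the Smr2 UMIs. Tspan8 (chromosome 10, 115816832 to 115849893), a tetraspanin of epithelial surfaces that is on the luminal progenitor list, had 289 CPM in cluster 7 and 90.4 CPM in the other cells of mouse 1, and 589 CPM in cluster 7 and 85.9 CPM in the other cells of mouse 2.

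The promoters of these 3 genes (250 bases before to 50 after the RefSeq start, GRCm38.p6, plus strand) were picked because each held the core of the SOX binding motif. Sox10 is a marker gene of the cluster that did not set it apart, and a link of Sox10 to these genes was not tested. The promoters of the 3 genes are shown here. They lie at chr5:88317062-88317361, chr5:88086306-88086605 and chr10:115817034-115817333, in the order printed, and capitals mark the SOX core:
Prol1: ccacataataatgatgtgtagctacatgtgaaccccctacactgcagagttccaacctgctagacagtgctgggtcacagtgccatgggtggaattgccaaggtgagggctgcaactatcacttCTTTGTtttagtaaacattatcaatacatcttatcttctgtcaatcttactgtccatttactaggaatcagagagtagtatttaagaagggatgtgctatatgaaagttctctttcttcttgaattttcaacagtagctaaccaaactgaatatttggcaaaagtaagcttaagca
Smr2: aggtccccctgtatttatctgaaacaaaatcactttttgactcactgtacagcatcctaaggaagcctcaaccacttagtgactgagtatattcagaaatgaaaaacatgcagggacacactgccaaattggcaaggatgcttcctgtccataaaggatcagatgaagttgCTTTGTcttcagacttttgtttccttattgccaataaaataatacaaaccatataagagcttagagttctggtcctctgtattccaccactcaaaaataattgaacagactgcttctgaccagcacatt
Tspan8: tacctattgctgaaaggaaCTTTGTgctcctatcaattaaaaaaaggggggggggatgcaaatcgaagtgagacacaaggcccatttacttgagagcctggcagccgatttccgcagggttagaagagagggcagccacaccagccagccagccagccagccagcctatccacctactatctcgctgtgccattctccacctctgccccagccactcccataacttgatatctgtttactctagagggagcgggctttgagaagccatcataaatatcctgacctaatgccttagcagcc
The motif searched was ACAAAG or, on the other strand, CTTTGT, and each of the 3 held it once. Among the higher genes with a RefSeq promoter, 11 of 75 (14.7%) held it, against 23 of 124 lower genes (18.5%), 12.8% of 6035 promoters of genes compared and 18.7% of all 27025 promoters. The promoters of Car6, Car12, Clic3, Mfsd4a, Atp2a3, Cck, Prkar2b, Snhg11, Rgr, Cdhr1, Scgb1c1 and Cox8b, leading genes described below, did not hold it. The RUNX core (TGTGGT or ACCACA), of the family of Runx1, was in 16.0% of the promoters of higher genes, 11.3% of those of lower genes, 10.9% of those of genes compared and 16.9% of all promoters. A match of 6 letters is a description and not a binding site, and both shares of the higher genes lay between those of genes compared and of all promoters.

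Car6, the carbonic anhydrase secreted in saliva and milk, had 1062 CPM in cluster 7 and 69.9 CPM in the other cells of mouse 1, and 1362 CPM in cluster 7 and 113 CPM in the other cells of mouse 2, 15.2-fold and 12.1-fold higher. It was the most evenly spread of the leading genes: after thinning to 2000 UMIs, 56.5% and 63.5% of cluster 7 cells held a Car6 UMI, against 6.82% and 6.56% of the other cells and 2.78% and 1.09% of cluster 13. Car12, a carbonic anhydrase of the cell membrane, had 166 CPM in cluster 7 and 39.4 CPM in the other cells of mouse 1, and 200.1 CPM in cluster 7 and 47.0 CPM in the other cells of mouse 2, where cluster 1 came close at 196 CPM.

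Clic3, of the chloride intracellular channel family, had 255 CPM in cluster 7 and 25 CPM in the other cells of mouse 1, and 72.0 CPM in cluster 7 and 3.52 CPM in the other cells of mouse 2. Its gene overlaps Paxx on the opposite strand, and Paxx had 56.8 CPM in cluster 7 and 35.6 CPM in the other cells of mouse 1, and 44.0 CPM in cluster 7 and 29.2 CPM in the other cells of mouse 2. Mfsd4a, a member of the major facilitator family of transporters, had 173 CPM in cluster 7 and 28.8 CPM in the other cells of mouse 1, and 394 CPM in cluster 7 and 40.2 CPM in the other cells of mouse 2. Atp2a3, a calcium pump of the endoplasmic reticulum, was 6.50-fold higher in mouse 1 and 4.42-fold higher in mouse 2, at 119.9 and 44.0 CPM in cluster 7.

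Cck, the peptide hormone cholecystokinin, had 282 CPM in cluster 7 and 42.4 CPM in the other cells of mouse 1, and 47.0 CPM in cluster 7 and 5.97 CPM in the other cells of mouse 2. It was at its highest in cluster 7 in both mice. Prkar2b, a regulatory subunit of protein kinase A, was 5.20-fold and 7.29-fold higher, at 91.1 and 164 CPM in cluster 7. Snhg11, a noncoding host transcript of small nucleolar RNAs, was 6.26-fold and 4.41-fold higher, at 148 and 159 CPM in cluster 7.

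Rgr, an opsin of the retinal pigment epithelium, had 377 CPM in cluster 7 and 18.4 CPM in the other cells of mouse 1, and 54.0 CPM in cluster 7 and 2.84 CPM in the other cells of mouse 2. Cdhr1, a cadherin-related protein of photoreceptors, had 224 CPM in cluster 7 and 32.6 CPM in the other cells of mouse 1, and 45.0 CPM in cluster 7 and 6.50 CPM in the other cells of mouse 2. The ratios, 20.5-fold and 19-fold for Rgr and 6.88-fold and 6.92-fold for Cdhr1, were close between the mice although the levels in cluster 7 were not.

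The last of the 15 leading genes were low in level. Scgb1c1, a secretoglobin, had 69.9 CPM in cluster 7 and 13 CPM in the other cells of mouse 1, and 61.0 CPM in cluster 7 and 6.54 CPM in the other cells of mouse 2. Cox8b, a subunit of cytochrome c oxidase, had 41.3 CPM in cluster 7 and 6.05 CPM in the other cells of mouse 1, and 70.0 CPM in cluster 7 and 6.04 CPM in the other cells of mouse 2. Cox8b was the only one of the 15 that was not highest in cluster 7 in both mice, since cluster 15 of mouse 2 had 98.4 CPM.

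The spread of the 15 leading genes over cells was also counted. After thinning to 2000 UMIs, 3 or more of the 15 genes were detected in 239 of 315 cluster 7 cells (75.9%, 70.8 to 80.5) and 7.35% of the other cells of mouse 1, and in 53 of 85 cluster 7 cells (62.4%, 51.2 to 72.6) and 1.69% of the other cells of mouse 2. In cluster 13 this was 0% and 1.09% of cells. Shallower cells were left out of the thinned shares, 0 and 4 of cluster 7 and 492 and 853 of the others. At full depth the median cell held 10.0 of the 15 genes in cluster 7 and 2.00 in the other cells of mouse 1, and 7.0 in cluster 7 and 1.00 in the other cells of mouse 2. No cluster 7 cell was without any of the 15 at full depth, whereas 23.9% and 33.3% of the other cells were. The genes were picked for their level in these cells, and whether they occur together in a cell more often than their single shares give was not tested.

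Further genes were named after their values were seen. Lgr5 (chromosome 10, 115450311 to 115587780), the R-spondin receptor that marks stem cells of the intestine and other epithelia, had 45.0 CPM in cluster 7 and 4.10 CPM in the other cells of mouse 1, and 43.0 CPM in cluster 7 and 1.79 CPM in the other cells of mouse 2, 11-fold (9.11 to 13.2) and 24.1-fold (16.4 to 34.8) higher. Cluster 11 of mouse 1 followed with 33.0 CPM, and no other cluster of mouse 2 had more than 5.98 CPM. At full depth 33.7% and 32.6% of cluster 7 cells held an Lgr5 UMI, against 3.73% and 1.51% of the other cells and 1.37% and 1.04% of cluster 13. Thinned to 2000 UMIs the shares were 9.84% (6.79 to 13.7) of cluster 7 cells and 1.16% of the other cells in mouse 1, and 4.71% (1.30 to 11.6) of cluster 7 cells and 0.410% of the other cells in mouse 2. Lgr5 is on the basal list, of which it was the only member called higher.

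Amtn, a secreted protein of enamel-forming ameloblasts, had 658 CPM in cluster 7 and 80.8 CPM in the other cells of mouse 1, and 44.0 CPM in cluster 7 and 10.4 CPM in the other cells of mouse 2. In mouse 2 cluster 7 ranked 3 for Amtn, and cluster 12 had 88.8 CPM. Scgb2b27, a secretoglobin of a family of near-identical copies whose counts are uncertain for that reason, had 1346 CPM in cluster 7 and 191 CPM in the other cells of mouse 1, and 1965 CPM in cluster 7 and 664 CPM in the other cells of mouse 2. Deptor, an inhibitor of mTOR, was 3.19-fold and 3.39-fold higher, at 247 and 204 CPM in cluster 7. Runx1, a transcription factor of mammary and blood development, had 336 CPM in cluster 7 and 188 CPM in the other cells of mouse 1, and 708 CPM in cluster 7 and 186 CPM in the other cells of mouse 2, and passed the limit only in mouse 2.

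The luminal progenitor genes did not move as a group. All 14 genes of a list of luminal progenitor markers were compared, with 1 higher (Tspan8), 3 lower and a median log2 ratio of -0.46, against -0.02 over all genes compared. For this list and those below, the shares over all genes compared were 1.26% higher and 2.12% lower. Ltf, which encodes lactoferrin, had 2.21 CPM in cluster 7 and 112 CPM in the other cells of mouse 1, and 3.00 CPM in cluster 7 and 157 CPM in the other cells of mouse 2, 50.5-fold (28.9 to 97.8) and 52.2-fold (17.9 to 253, from 3 UMIs) lower. Aldh1a3, a retinaldehyde dehydrogenase used to mark luminal progenitors, had no UMI in cluster 7 in either mouse, against 44.1 and 44.4 CPM in the other cells. That was 79.6-fold and 14.8-fold lower by the 3-UMI floor of each library. By the exact counting interval it was at least 64.7-fold and 12.0-fold lower. Mfge8, a protein of milk fat globules, had 259.7 CPM in cluster 7 and 1775 CPM in the other cells of mouse 1, and 14.0 CPM in cluster 7 and 272 CPM in the other cells of mouse 2. So 3 genes commonly used to mark luminal progenitors were low where the progenitor score was high.

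The other members lay closer to the rest. Kit, the stem cell factor receptor, had 49.6 CPM in cluster 7 and 38.0 CPM in the other cells of mouse 1, and 41.0 CPM in cluster 7 and 76.2 CPM in the other cells of mouse 2, with opposite signs in the 2 mice. Elf5, a master factor of alveolar fate, had 149 CPM in cluster 7 and 148 CPM in the other cells of mouse 1, and 98 CPM in cluster 7 and 119.6 CPM in the other cells of mouse 2. Plet1, a surface protein of luminal progenitors, had 5414 CPM in cluster 7 and 3192 CPM in the other cells of mouse 1, and 5150.0 CPM in cluster 7 and 2846 CPM in the other cells of mouse 2, below the limit in both. Wfdc18, a secreted whey acidic protein family member, had 8724 CPM in cluster 7 and 12664 CPM in the other cells of mouse 1, and 2986 CPM in cluster 7 and 9678 CPM in the other cells of mouse 2. The remaining members, Ehf, Cd14, Lcn2, Trf, Itga2 and Lbp, were not called either.

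Milk protein and mature luminal genes showed no common shift. Of 10 milk protein genes 6 were compared and 1 was called, Csn1s1, with 3.69 CPM in cluster 7 and 28.5 CPM in the other cells of mouse 1, and no UMI in cluster 7 and 27.2 CPM in the other cells of mouse 2. Lalba, the alpha-lactalbumin of milk, had 687 CPM in cluster 7 and 139 CPM in the other cells of mouse 1, but 312 CPM in cluster 7 and 284 CPM in the other cells of mouse 2. Of 12 mature luminal genes 6 were compared and none was called, with a median log2 ratio of -0.13. Esr1, the estrogen receptor, had 68.4 CPM in cluster 7 and 78.1 CPM in the other cells of mouse 1, and 75 CPM in cluster 7 and 88.5 CPM in the other cells of mouse 2. Pgr, the progesterone receptor, had 2 UMIs and none in cluster 7. Among 4 simple keratins, Krt19 was lower, with 76.7 CPM in cluster 7 and 363 CPM in the other cells of mouse 1, and 67.0 CPM in cluster 7 and 731 CPM in the other cells of mouse 2, and Krt7, Krt8 and Krt18 were not called.

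Most basal genes were low in cluster 7. Of 18 basal and myoepithelial genes 10 were compared, 6 were lower and 1 (Lgr5) was higher, with a median log2 ratio of -4.04. Among all genes compared, 2.12% were lower and 1.26% higher. Krt14, the keratin that defines basal cells, had no UMI in any of the 404 cells, against 57.2 and 91.2 CPM in the other cells. That was 103-fold and 30.4-fold lower by the floor of 0.553 and 3.00 CPM. The exact Poisson interval for no UMI reached 0.681 and 3.69 CPM. Of the clusters most like cluster 7, cluster 3 had 0.451 and 2.50 CPM of Krt14. Cluster 17 had 0 and 53.3 CPM, and cluster 0 had 21.1 and 83.1 CPM. Acta2, the smooth muscle actin of myoepithelium, had 4 UMIs and 1 UMI in cluster 7 (0.738 and 1.00 CPM), against 130.3 and 54.3 CPM in the other cells, where cluster 6 of mouse 1 had 1469 CPM and cluster 15 of mouse 2 had 1921 CPM. The medians of the other clusters for Acta2 were 16.2 and 3.81 CPM. Tagln, an actin-binding protein of smooth muscle, had 0.922 and 1.00 CPM in cluster 7, against 77.7 and 28.7 CPM in the other cells. Krt17, Krt6a and Myl9 were also lower, and Krt5, Krt15 and Myh11, which were too low to be compared, had no UMI in cluster 7.

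Of 16 genes of epithelial-mesenchymal transition 6 were compared and 5 were lower, beside 2.12% of all genes compared. The median log2 ratio was -4.36. Sparc, a secreted glycoprotein of the matrix, had 1.29 and 1.00 CPM in cluster 7, against 202 and 69.8 CPM in the other cells. Spp1, the cytokine osteopontin, had 97.6 CPM in cluster 7 and 1049 CPM in the other cells of mouse 1, and 14.0 CPM in cluster 7 and 1208 CPM in the other cells of mouse 2. Postn had no UMI in cluster 7 in either mouse, against 49.9 and 26.6 CPM in the other cells. The median of the other clusters shows how far these contrasts rested on a few of them. For Sparc it was 17.1 and 1.99 CPM, with 2517 and 2295 CPM in cluster 6. For Spp1 it was 252 and 723 CPM, with 6811 and 6701 CPM in cluster 6.

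Among the 159 lower genes, 45 in each mouse had their highest level in cluster 6, 24 and 20 in cluster 13 and 28 and 26 in cluster 16. With clusters 6 and 13 left out of the other cells, 117 genes were lower, and Krt17, Postn, Tagln, Apoe, Fst, Fn1, Dcn and Col3a1 were among 18 named genes no longer called. Cluster 7 was at the bottom of all 18 clusters, ties included, in both mice for 17 of the 159 genes.

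Basement membrane genes followed in part: of 13 compared 3 were lower, among them Col4a1 and Col4a2, the paired collagen IV chains. Col4a1 had 6.64 CPM in cluster 7 and 77.8 CPM in the other cells of mouse 1, and no UMI in cluster 7 and 35.0 CPM in the other cells of mouse 2. It was lower than in cluster 3 but not called against clusters 0 and 17, and Col4a2 was too low to be compared with these clusters. The call of Col4a2 was lost without clusters 6 and 13, without mouse 1 and without cells that held genes of another cell type. The integrin chains Itga6 and Itgb4 were not called. Other lower genes with a large ratio were Mgp, an inhibitor of calcification, with 8.12 and 5.00 CPM in cluster 7 against 335 and 52.7 CPM in the other cells, and Cryab, a small heat shock protein, with 4.43 and 2.00 CPM in cluster 7 against 56.5 and 76.2 CPM in the other cells. Ecrg4, a secreted peptide precursor, had 7.56 and 3.00 CPM in cluster 7 against 173 and 38.9 CPM in the other cells. Adamts1, a metalloproteinase of the matrix, had 4.43 CPM in cluster 7 and 111 CPM in the other cells of mouse 1, and 2.00 CPM in cluster 7 and 27.3 CPM in the other cells of mouse 2. Apoe, the lipid carrier apolipoprotein E, had 14.4 and 3.00 CPM in cluster 7 against 124 and 41.8 CPM in the other cells. Mgp and Apoe were not called against any of clusters 0, 17 and 3, those most like cluster 7. In cluster 3 Mgp had 2.07 and 0 CPM and Apoe 6.22 and 9.29 CPM. Cryab and Ecrg4 were lower than in clusters 0 and 17, but not than in cluster 3, with 4.78 and 2.86 CPM of Cryab. Adamts1 was lower than in each of them. Gm26917, a noncoding transcript that was 59406 and 44744 CPM in cluster 1, had 88.4 and 59.0 CPM in cluster 7 against 812 and 769 CPM in the other cells, whose clusters had medians of 155 and 159.9 CPM.

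Genes of innate defence were mostly lower. Of 17 such genes 13 were compared, 8 were lower, none was higher, and the median log2 ratio was -2.09. Over all genes compared, 2.12% were lower. Hp, the haptoglobin of the acute phase, had 1 UMI in cluster 7 of mouse 1 and none in that of mouse 2, against 21.4 and 95.1 CPM in the other cells. Saa2, an acute-phase serum amyloid whose near-identical copy Saa1 was also lower, had 11.1 CPM in cluster 7 and 88.3 CPM in the other cells of mouse 1, and 17 CPM in cluster 7 and 271 CPM in the other cells of mouse 2. Wfdc2, a secreted protease inhibitor, had 49.8 CPM in cluster 7 and 294 CPM in the other cells of mouse 1, and 58.0 CPM in cluster 7 and 724 CPM in the other cells of mouse 2. Chil1, a chitinase-like secreted protein, was 3.11-fold lower in mouse 1 and 18.6-fold lower in mouse 2. Against clusters 0, 17 and 3, those most like cluster 7, Wfdc2 and Chil1 were not called. Hp and Saa2 were lower than in cluster 0 but not than in clusters 17 and 3. In cluster 3 Chil1 had 11.4 and 32.9 CPM, below cluster 7, and Wfdc2 had 240.2 and 71.1 CPM, above it. Lcn2, a defence lipocalin kept on the luminal progenitor list, was not called, with 10822 CPM in cluster 7 and 11119 CPM in the other cells of mouse 1, and 7868 CPM in cluster 7 and 10133 CPM in the other cells of mouse 2.

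Transcripts of dividing cells were low in cluster 7. All 6 genes of G2 and mitosis that could be compared, of 16, were lower, with a median log2 ratio of -4.05, and 2 of them were called after thinning to 2000 UMIs. Among all genes compared, 2.12% were lower. Mki67, a marker of cycling cells, had 2.03 CPM in cluster 7 and 21.4 CPM in the other cells of mouse 1, and no UMI in cluster 7 and 55.2 CPM in the other cells of mouse 2. Top2a, the topoisomerase of mitotic chromosomes, had 1.11 CPM in cluster 7 and 19.4 CPM in the other cells of mouse 1, and no UMI in cluster 7 and 34.1 CPM in the other cells of mouse 2. These genes were highest in cluster 16, which had 366 and 495 CPM of Mki67, and the medians of the other clusters were 6.11 and 19 CPM. Cluster 0, one of the clusters most like cluster 7, was about as low, with 3.03 and 2.37 CPM of Mki67. Of 8 S-phase genes compared, 3 (Mcm7, Rrm1 and Tyms) were lower, with a median log2 ratio of -0.90, and 1 of them was called after thinning to 2000 UMIs. Of 11 cell cycle regulators compared, 1 was lower and none higher. That gene, Cdkn2a, which encodes the cell cycle inhibitors p16 and p19Arf, had 5.17 and 9.0 CPM in cluster 7 against 14.5 and 25.5 CPM in the other cells. Cluster 0 had 8.36 and 8.02 CPM of it. The call was lost with a pseudocount of 5 CPM and without mouse 2.

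**Figure D4:**
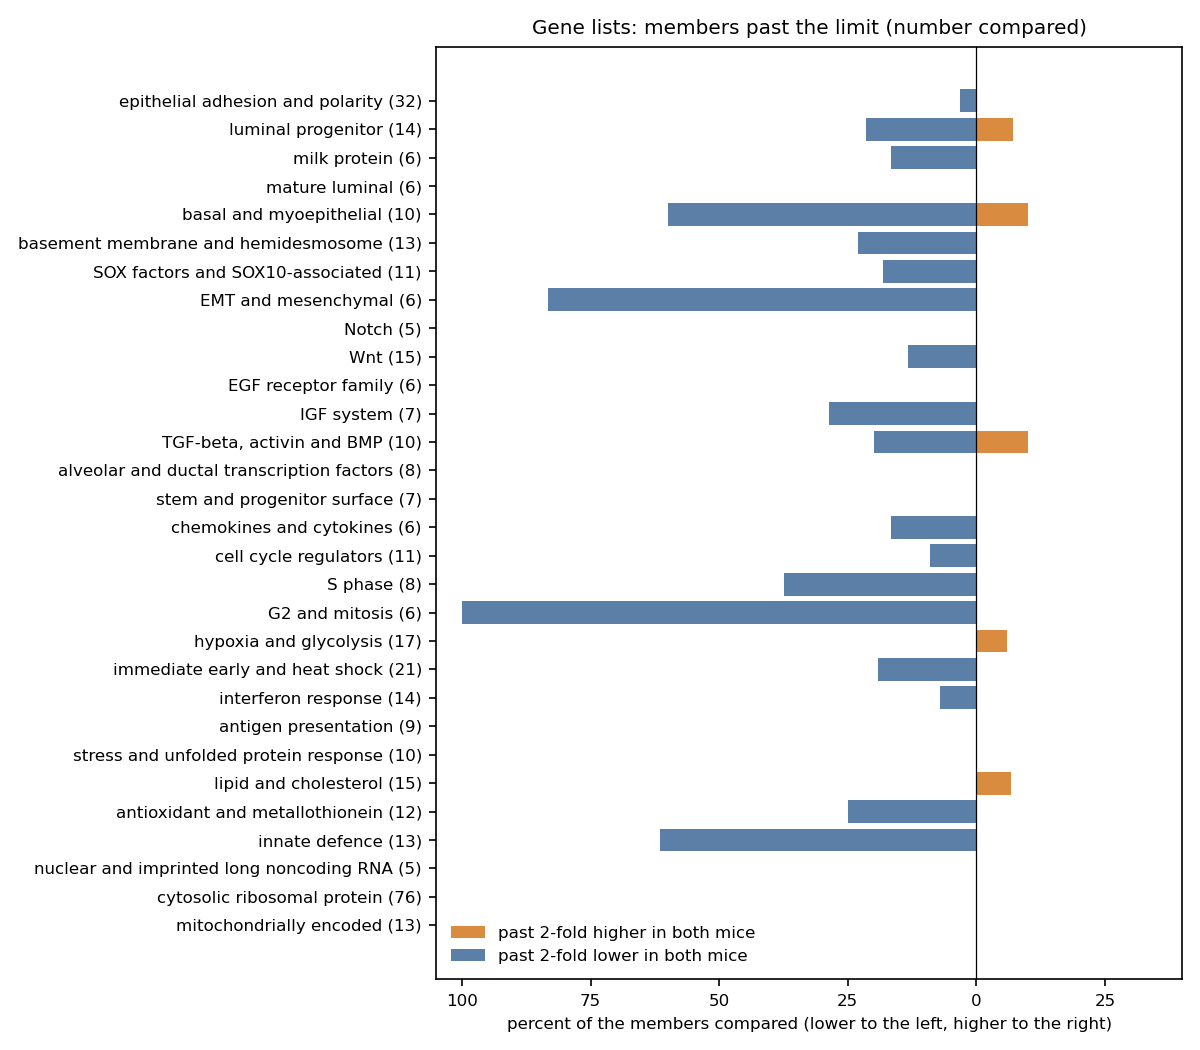
Share of the compared members of each gene list that were past the 2-fold limit in both mice, higher to the right (orange) and lower to the left (blue), with the number compared in brackets, for the lists of at least 5 compared members. All 6 G2 and mitosis genes and 5 of 6 genes of epithelial-mesenchymal transition were lower, and no list had more than 1 member higher. Among all genes compared, 1.26% were higher and 2.12% lower.

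Junction genes changed little. Of 33 genes of epithelial adhesion and polarity 32 were compared, none was higher, 1 was lower and the median log2 ratio was 0.11. The lower gene was Cgn, the tight junction protein cingulin, with 8.30 and 23.0 CPM in cluster 7 against 26.0 and 50.8 CPM in the other cells. Its call was lost with a pseudocount of 5 CPM, after thinning and with clusters weighted equally. Cldn7, a claudin and binding partner of Epcam, had 1384 CPM in cluster 7 and 816 CPM in the other cells of mouse 1, and 1586 CPM in cluster 7 and 886 CPM in the other cells of mouse 2, the highest of the 18 clusters in both mice but under the limit. Of 10 stem and progenitor surface genes 7 were compared, none was called, 6 were above the other cells in both mice, and the median log2 ratio was 0.47. One of them, Cd24a, used with Epcam to sort mammary epithelium, had 989 CPM in cluster 7 and 586 CPM in the other cells of mouse 1, and 733 CPM in cluster 7 and 626 CPM in the other cells of mouse 2.

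Signalling lists held few calls or none, beside 1.26% of all genes compared that were higher and 2.12% that were lower. Of 17 genes of the TGF-beta, activin and BMP family 10 were compared. Inhbb, the activin beta B chain, was higher at 41.7 and 36.0 CPM in cluster 7 against 19.7 and 17.1 CPM in the other cells, a ratio near the limit. The call was lost with TMM factors, a pseudocount of 5 CPM, the mean over cells, thinning and clusters weighted equally. Inhba, the beta A chain, had 1.11 CPM in cluster 7 and 33.5 CPM in the other cells of mouse 1, and no UMI in cluster 7 and 10.8 CPM in the other cells of mouse 2. Fst, the activin inhibitor follistatin, had 1.29 CPM in cluster 7 and 56.1 CPM in the other cells of mouse 1, and no UMI in cluster 7 and 27.3 CPM in the other cells of mouse 2. Of 15 Wnt genes compared, the ligands Wnt5b and Wnt7b were lower, Wnt7b not with RLE factors, a pseudocount of 5 CPM, the mean over cells, thinning or without clusters 6 and 13. Of 7 genes of the insulin-like growth factor system compared, the binding proteins Igfbp2 and Igfbp4 were lower. The calls of Igfbp2, Igfbp4 and Inhba were lost without clusters 6 and 13, without mouse 1 and without cells that held genes of another cell type. Of 11 SOX factors and SOX10-associated genes compared, Sox11 and Pmp22 were lower and Sox9 and Sox10 were not called. Both calls were lost with a pseudocount of 5 CPM, that of Sox11 also without mouse 1, and that of Pmp22 also after thinning, without clusters 6 and 13 and with clusters weighted equally. Neither the 5 Notch genes nor the 6 genes of the EGF receptor family held a call, although Errfi1, a feedback inhibitor of the receptor, was highest in cluster 7 in both mice with 1713 and 2218 CPM, against 1112 and 1143 CPM in the other cells.

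By the Pearson correlation of log2(CPM + 1) over the 7516 genes, which is a description across genes, the clusters most like cluster 7 by the mean of the 2 mice were cluster 0 (r of 0.953 in mouse 1 and 0.921 in mouse 2), cluster 17 (0.946 and 0.903) and cluster 3 (0.911 and 0.929). They held 967 and 1359 cells, 69 and 59 cells, and 440 and 157 cells. Against cluster 0, 115 of 7333 genes were higher in cluster 7 (1.57%) and 116 lower (1.58%). Against cluster 17, 91 of 7380 were higher (1.23%) and 144 lower (1.95%), and against cluster 3, 216 of 7386 were higher (2.92%) and 65 lower (0.880%). These comparisons and that with all other cells share the sums of cluster 7.

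Of the 95 genes higher than in all other cells, 39 were also higher than in each of these 3 clusters, and 13 of the 15 leading genes were among them, all but Cox8b and Scgb1c1. Against cluster 0, Car6 had 1062 CPM in cluster 7 and 74.4 CPM in cluster 0 of mouse 1, and 1362 CPM in cluster 7 and 47.2 CPM in cluster 0 of mouse 2. Epcam, by contrast, did not part the nearest clusters, with 9219 CPM in cluster 7 and 8597 CPM in cluster 0 of mouse 1, and 7109 CPM in cluster 7 and 7268 CPM in cluster 0 of mouse 2. Of the 159 lower genes, 9 were lower than in each of the 3, among them Ltf, Mfge8, Adamts1, Ptges and Thbs1. For Ltf the values were 2.21 CPM in cluster 7 and 221 CPM in cluster 0 of mouse 1, and 3.00 CPM in cluster 7 and 393 CPM in cluster 0 of mouse 2. Krt14 and the other basal genes were not among the 9.

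Several leading genes lie next to each other in the genome, which was noticed after their values were seen. Of the 95 higher genes, 12 (12.6%) had another higher gene with its start within 500 kb, and 527 of 7421 (7.10%) other genes compared had a higher gene that near. Within 100 kb it was 9.47% of the higher genes and 1.66% of the others, and within 1000 kb 14.7% and 11.6%. Of the lower genes, 16.4% had another lower gene within 500 kb, and 12.2% of the others had a lower gene that near. On chromosome 5, Smr2, Prol1 and Amtn span 289.6 kb between their starts, and of their neighbours Smr3a, with log2 ratios of -0.65 and 1.22, and Csn3, with -0.69 and -0.31, were not called.

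On chromosome 14, Rgr, Cdhr1 and 2610528A11Rik start within 65.1 kb of one another, with Ccser2 on one side and Ghitm on the other not called. On chromosome 10, Lgr5 and Tspan8 start 229 kb apart with no other gene compared near them. Scgb1c1 and Cox8b on chromosome 7 start 54.9 kb apart, with the starts of 4 compared genes between them, none of them called. Abca2, a lipid transporter with 36.5 and 28.0 CPM in cluster 7 against 14.1 and 9.40 CPM in the other cells, lies 28.1 kb from Clic3 on chromosome 2.

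**Figure D5:**
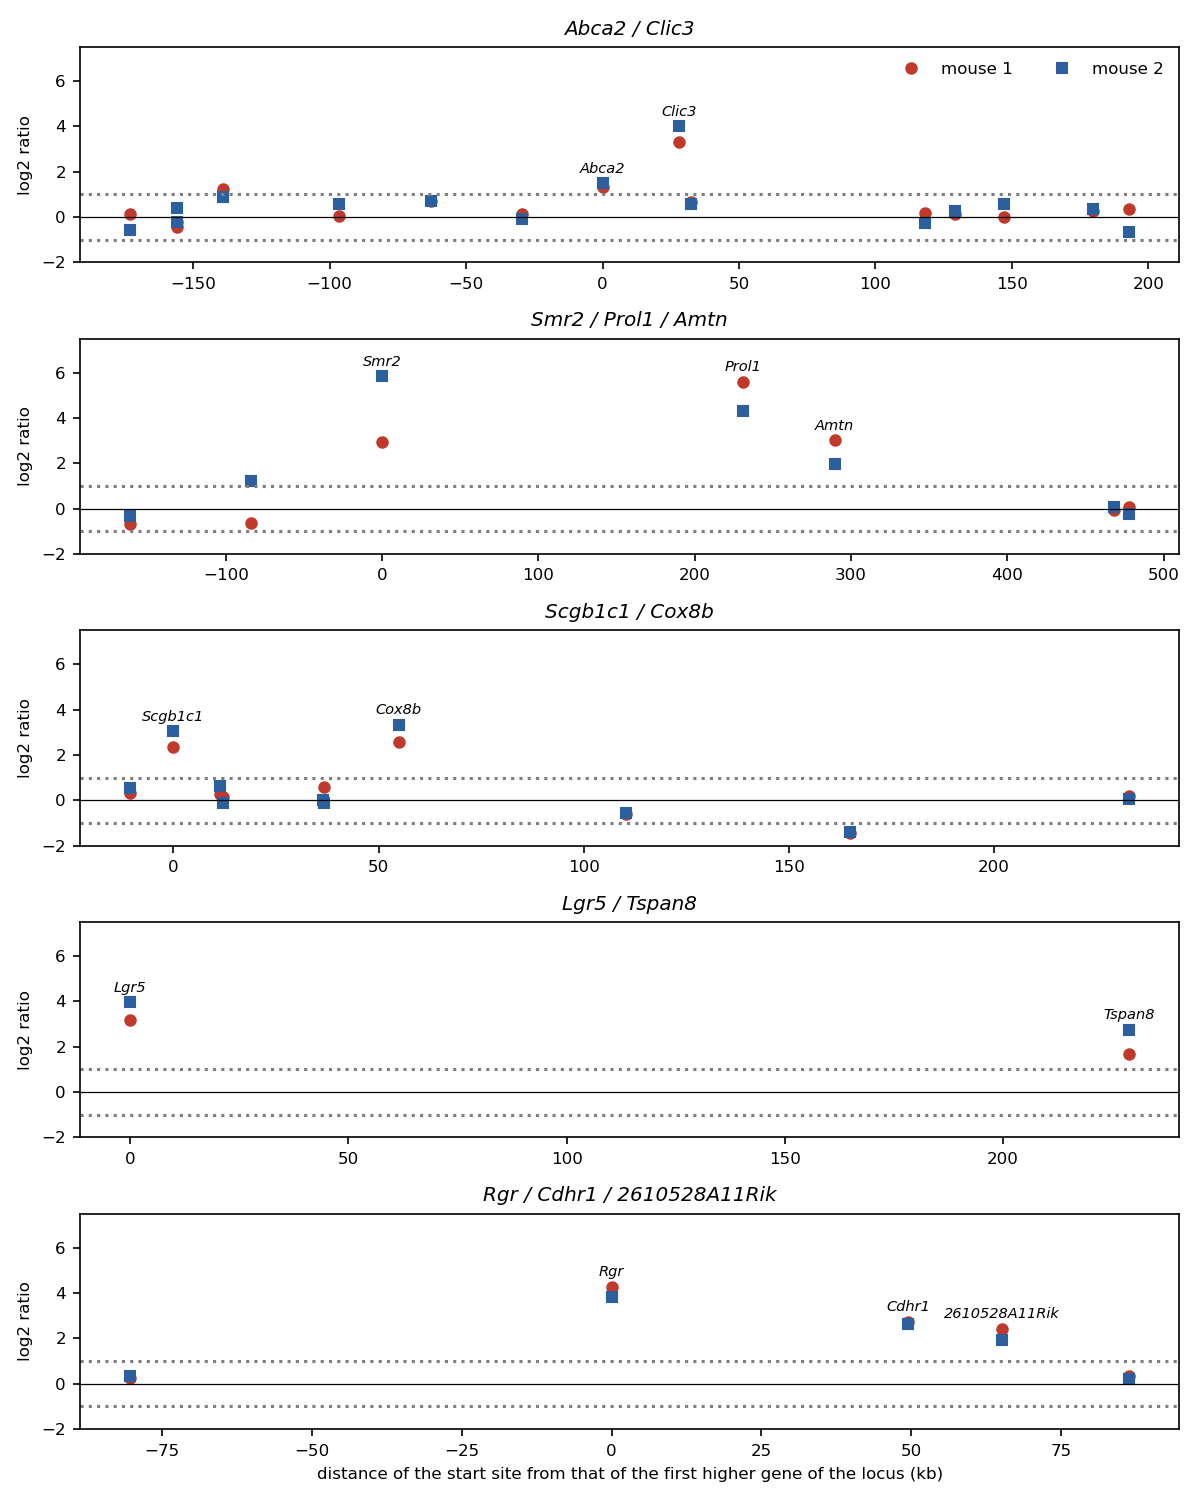
Log2 ratio of cluster 7 over the other annotated cells for each compared gene around 5 groups of neighbouring higher genes, against the distance of its start from that of the first higher gene (kb), with a red circle for mouse 1, a blue square for mouse 2 and dotted lines at the 2-fold limit. The named genes stand above the limit in both mice, and of their neighbours Ifitm3 was lower (-1.43 and -1.39), while Lrrc26 (1.24 and 0.86) and Smr3a (-0.65 and 1.22) passed the limit in 1 mouse only.

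The 2 mice differed within cluster 7. Of the 7516 genes, 759 differed by more than 2-fold between mouse 1 and mouse 2 in cluster 7 and 272 in the other cells, 155 of them in both and the same way, where the smaller sum of mouse 2 widens the spread of low genes. Of 3299 genes with at least 50 CPM in either mouse, 264 differed by more than 2-fold in cluster 7. Ccl6, a chemokine, had 317 CPM (exact Poisson interval 302 to 332) in cluster 7 of mouse 1 and no UMI (0 to 3.69) in that of mouse 2, against 7.25 and 0.411 CPM in the other cells. Vim, the filament of mesenchymal cells, had 177 CPM (166 to 188) in cluster 7 of mouse 1 and 2.00 CPM (0.242 to 7.23) in that of mouse 2, against 203 and 59.5 CPM in the other cells, and was found at full depth in 23.8% and 2.25% of cluster 7 cells, 29.2% and 8.74% of the other cells and 5.48% and 2.08% of cluster 13 cells.

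Ly6a, the surface antigen Sca-1, had 686 CPM in cluster 7 of mouse 1 and 41.0 CPM in that of mouse 2, against 229 and 124 CPM in the other cells, so that it lay above the other cells in mouse 1 and below them in mouse 2. Ptx3, a secreted pentraxin, behaved likewise with 298 and 3.00 CPM in cluster 7 against 116 and 11.9 CPM in the other cells. In the other direction, Cxcl1, a chemokine that attracts neutrophils, had 0.553 CPM in cluster 7 of mouse 1 and 62.0 CPM in that of mouse 2, against 101 and 163 CPM in the other cells. Prss22, a serine protease, had 121 CPM in cluster 7 of mouse 1 and 406 CPM in that of mouse 2, against 127 and 82.4 CPM in the other cells. With 1 library per mouse, mouse and library cannot be told apart.

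Markers of other cell types were low in cluster 7. Over 10 lists of 76 genes, 40 genes had no UMI in cluster 7 in either mouse, and the summed level was 145 CPM in cluster 7 and 305 CPM in the other cells of mouse 1, and 201 CPM in cluster 7 and 510.3 CPM in the other cells of mouse 2. Ptprc, which encodes CD45, and Cdh5 of endothelium had no UMI in cluster 7, and Pecam1, which encodes CD31, had 10 UMIs and 1 UMI. Macrophage genes summed to 17.7 and 12.0 CPM in cluster 7 against 25.3 and 29.3 CPM in the other cells, of which Cd68 was 10.5 and 5.00 CPM in cluster 7, and fibroblast genes to 4.24 and 3.00 CPM against 112 and 116 CPM. Neutrophil genes summed to 3.51 and 30.0 CPM in cluster 7 against 34.2 and 158 CPM in the other cells, nearly all of it S100a8, which epithelium can also make. Endothelial genes summed to 2.77 and 3.00 CPM against 11.2 and 37.4 CPM. The T and NK cell, B cell, adipocyte and erythroid lists each summed to 1.00 CPM or less in cluster 7. Schwann cell genes, which share Sox10-linked members with mammary epithelium, summed to 75.8 and 76.0 CPM in cluster 7 against 80.4 and 77.0 CPM in the other cells, and pericyte genes to 40.2 and 74.0 CPM against 36.7 and 44.8 CPM, most of it Mcam and, in mouse 2, Abcc9. The part of the pericyte genes in the differences of mouse 2 was not tested. Cells with UMIs of 3 or more genes of any 1 of these lists made up 3.49% (1.76 to 6.16) of cluster 7 and 3.73% (3.13 to 4.41) of the other cells of mouse 1, and 4.49% (1.24 to 11.1) of cluster 7 and 2.19% (1.81 to 2.63) of the other cells of mouse 2. Without such cells 97 genes were higher and 147 lower.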

How the data were processed

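Single-cell RNA-seq libraries of sorted tumor cells of 2 mice were sequenced and counted by the authors with Cell Ranger 6.0.1 on mm10 (GRCm38). The deposited matrices hold UMI counts per gene and cell for 6175 and 7538 barcodes, with 63140346 and 61529883 UMIs. The authors removed doublets with scDblFinder, cells of low depth, mitochondrial outliers and lymphoid and myeloid clusters, integrated the mice with Seurat (4.0.3 in the submitters' processing notes) and clustered the rest. The deposited annotation gives the cluster, UMI and gene counts, the mitochondrial fraction and a VAM score of 0 to 1 for each of 3 signatures.

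Counts were joined by mouse and barcode, summed per mouse and group, and scaled to CPM of all UMIs in the sum, so fold changes are relative to that total. Log2 ratios used a pseudocount of 1 CPM, which understates changes of low genes. With 1 condition and clusters drawn from the same genes, no test was run. Intervals (95%, exact Poisson for a level, exact Clopper-Pearson for shares and ratios of counts) cover counting error only. Named genes were Epcam, Cdh1 and Sox10, the 15 most extreme genes each way with at least 50 CPM in the higher group, up to 4 called members of each list (or, with none, the 2 highest) and markers of other cell types. The members and the 41 gene lists were chosen with earlier results of these data known. Smr3a, Cldn7, Plet1 and the other genes outside this rule, Lgr5 among them, were chosen after their values were seen. Whether the counting used strand is not given in the sources used here, so genes that overlap another may share reads with it. Among the genes named these are Abcc9, Ccl6, Cdh5, Clic3, Col4a1, Col4a2, Cryab, Csn3, Deptor, Ecrg4, Errfi1, Fn1, Fst, Gpx2, Inhba, Krt6a, Krt7, Krt8, Lgr5, Mcam, Mcm7, Mfsd4a, Mt2, Paxx, Pfkp, Plet1, Ptx3, Runx1, Scgb1c1, Tagln, Tspan8, Wnt5b and Wnt7b. Of the genes named by this rule, 1 of the 15 higher genes is not reported here. Python 3.11.15, numpy 2.4.6, pandas 2.3.3, scipy 1.17.1, matplotlib 3.10.9 and R 4.3.3 with edgeR 4.0.16 (TMM and RLE factors only) were used. Alternatives were other scalings, filters, pseudocounts, fold limits, thinning, other sets of cells and leaving out each mouse.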

Additional observations from a re-analysis of the deposited data

How the results depend on the processing

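The number of genes higher in cluster 7, 95, was 44 with a filter at a mean of 50 CPM and 315 with a 1.5-fold limit, and the number lower, 159, was 618 without a filter, 40 with the filter at 50 CPM and 330 with the 1.5-fold limit. With 1 mouse left out, 193 to 253 genes were higher and 223 to 342 lower, since the call no longer needed both mice. TMM factors gave 99 higher and 156 lower, RLE factors 113 and 145, a pseudocount of 5 CPM 75 and 114, thinning 114 and 211, and clusters weighted equally 117 and 218. The last alternatives, chosen after seeing the data, left out cells with genes of another cell type (97 higher, 147 lower) and cells under 2000 UMIs (96 and 157). Of 83 named genes that were called, 35 kept the call under all 14 settings and none changed direction. The filter at 50 CPM, which drops genes from the comparison, removed 46 calls, and no other setting removed more than 18. Averaged over the mice, the mature luminal score of 0.177 was 0.165 in cells of at least 2000 UMIs. Detection of Sox10 was 26.7% thinned to 2000 UMIs, 50.2% at 5000 and 79.6% unthinned, that of Lgr5 7.27%, 16.8% and 33.1%, and that of Prol1 18.8% and 39.6% unthinned. The likeness to cluster 3 was 0.920 by Pearson's r and 0.901 by Spearman's rho. With 1 mouse left out, the share of cells in cluster 7 was 1.67% to 8.23% (4.95% on average), and the luminal progenitor score was 0.532 to 0.737. The share over all barcodes was 3.14%. The causes of these differences were not tested. In mouse 2, 89 cells and 3.00 CPM for 3 UMIs limit what low genes can show. No paired analysis was possible because no result comes from a test, the clusters having been drawn from the same genes. The ratios themselves were taken within each mouse.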

Other observations

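Metabolic genes of cluster 7 held few calls, given here as values with no explanation. Of 17 genes of hypoxia and glycolysis, all compared, 1 was higher and none lower. That gene, Pfkp, the platelet-type phosphofructokinase of glycolysis, had 247 CPM in cluster 7 and 83.6 CPM in the other cells of mouse 1, and 211 CPM in cluster 7 and 90.3 CPM in the other cells of mouse 2. Of 15 lipid and cholesterol genes compared, Plin2, a coat protein of lipid droplets, was higher, with 1041 CPM in cluster 7 and 408 CPM in the other cells of mouse 1, and 690.3 CPM in cluster 7 and 326 CPM in the other cells of mouse 2. Both genes were at their highest of the 18 clusters in cluster 7 in both mice. Of 12 antioxidant and metallothionein genes compared, Gpx2, Gpx3 and Mt2 were lower. Gpx2 and Gpx3 were too low to be compared with clusters 0, 17 and 3. Cluster 0 had 1.18 and 1.92 CPM of Gpx2, against 1.48 and 1.00 CPM in cluster 7. Mt2 was lower than in cluster 3 but not called against clusters 0 and 17. The calls of Gpx3 and Mt2 were lost without clusters 6 and 13. That of Gpx3 was also lost with a pseudocount of 5 CPM, without mouse 2 and without cells that held genes of another cell type.

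Of 21 immediate early and heat shock genes, all compared, 4 were lower (Fos, Atf3, Fosb and Nr4a1), beside 2.12% of all genes compared. Fos, a factor induced within minutes of stimulation or of tissue handling, had 59.8 CPM in cluster 7 and 256 CPM in the other cells of mouse 1, and 180.1 CPM in cluster 7 and 459 CPM in the other cells of mouse 2. Against clusters 0 and 17 none of the 4 was called. Against cluster 3, Fos, Atf3 and Fosb were higher in cluster 7, and Nr4a1 was not called. Cluster 3 had 21.8 and 63.6 CPM of Fos. For Atf3, cluster 9 had 2392 and 3183 CPM, and the medians of the other clusters were 123 and 179 CPM. The part of tissue handling in these values was not tested. Of 14 interferon response genes compared, 1 (Ifi27l2a) was lower, and of 6 chemokines and cytokines compared, 1 (Cxcl1) was lower. Ifi27l2a was lower than in cluster 17 but not called against clusters 0 and 3. Its call was lost with RLE factors, a pseudocount of 5 CPM and without cells that held genes of another cell type. Cxcl1 was lower than in cluster 0 but not called against clusters 17 and 3. In mouse 2 it had 62.0 CPM in cluster 7 and 2.14 CPM in cluster 3. The Cxcl1 call was lost without clusters 6 and 13. None of 9 antigen presentation genes was called. None of 10 genes of the unfolded protein response, 8 alveolar and ductal transcription factors, 5 long noncoding RNAs, 76 ribosomal protein genes and 13 mitochondrially encoded genes compared was called, with median log2 ratios of -0.07, 0.05, 0.29, -0.12 and 0.12 in that order.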
